A study of Mus musculus with 8 samples.

Results

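The proteasome genes were the rows of the count table whose Ensembl identifier carried a mouse symbol starting with Psm, then a letter from a to g, then a digit. The rule found 51 of 22430 genes, and 48 of the 51 had a mean raw count above 5 over the 8 libraries and entered the test. Brain hemispheres of male C57Bl/6JRj mice, with no treatment or engineered allele, were taken at 6 months (6m, 4 mice) and 24 months (24m, 4 mice), and each mouse gave 1 Oxford Nanopore (ONT) library. The study's methods describe direct sequencing of RNA on a MinION device, whereas the sample labels name a short-read polyA kit. The comparison asked how the RNA levels of the proteasome's parts differed between adult and aged brain.

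The proteasome is the protease that degrades most ubiquitin-tagged proteins. Its 20S core is a barrel of outer rings of alpha subunits, which form the gate, around inner rings of beta subunits, of which the ones encoded by Psmb5, Psmb6 and Psmb7 cut the chain. Interferon-induced cells replace these by Psmb8, Psmb9 and Psmb10, which makes the immunoproteasome, known for making peptides that are shown on class I molecules. The 19S regulatory particle caps the core, and its base holds the AAA ATPases (Psmc1 to Psmc6) that unfold the substrate, while its lid removes ubiquitin. Neurons are not renewed by division and rely on it, with autophagy, to clear damaged protein, and it has long been studied in the ageing brain.

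The libraries held 573152 to 1255424 gene counts, and 6m replicate 2 was the shallowest. Levels below are a gene's counts per 1000000 counts of its library (CPM) after TMM scaling, a log2FC is 24m over 6m, and 3 counts were worth 2.30 to 5.43 CPM. The 24m replicate 1 library stood somewhat apart, with a mean Spearman rho of 0.923 to the other 24m libraries against 0.938 to 0.943 for those 3, so counts are also given without it. Markers of brain cell types were present in each library and some of them moved with age. Over all tested genes, 12.3% rose and 9.42% fell. Of 8 neuron markers, 6 rose and none fell, and the list summed to 1422 to 1653 CPM at 6m and 1721 to 2492 CPM at 24m. Of 7 oligodendrocyte markers, 5 rose and none fell (2003 to 2574 CPM at 6m and 2777 to 3638 CPM at 24m), and of 6 tested astrocyte markers, 3 rose and 1 fell (2361 to 2874 and 2365 to 3109 CPM). All 5 red-cell genes examined fell (median log2FC of -0.87). Of 2 tested endothelium markers, 1 fell (Esam) and none rose, with a median log2FC of -0.74. Of 4 tested choroid plexus markers, 1 fell (Enpp2) and none rose, with a median log2FC of -0.42. Every tested estimate of these last lists was negative. The part of these shifts in the values of the proteasome genes was not tested. Because the samples are bulk tissue, fewer cells of a type and less RNA per cell cannot be told apart.

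RNA of the proteasome was on balance lower in the aged hemisphere, with 7 of the rule's 9 genes of the 19S base among those that fell. Of the 48 tested genes, 12 fell (25.0%) and 1 rose (2.08%) at an adjusted p of at most 0.05 (quasi-likelihood F test of edgeR, Benjamini-Hochberg over 9375 genes), while over all tested genes 9.42% fell and 12.3% rose. With a further minimum of 0.58 on the absolute log2FC, only Psmc1 fell and only Psma3 rose, against 4.17% and 10.3% of all tested genes. The log2FC was negative for 38 of the 48 (79.2%), with a median of -0.24, whereas 50.3% of all tested genes were negative with a median of -0.003. In 13 members (27.1%) every 24m library lay below every 6m library and in 1 (2.08%) above, against 9.96% and 11.1% of all tested genes. Together the rule's genes took 0.794% ± 0.0171 of all counts at 6m and 0.713% ± 0.0264 at 24m (SD, n = 4 each). Without 24m replicate 1, 16 members fell, and without 6m replicate 4, 6 did. Over the 18 alternatives, 3 to 7 of the 9 base genes fell, so that 7 was the highest count.

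**Figure D1:**
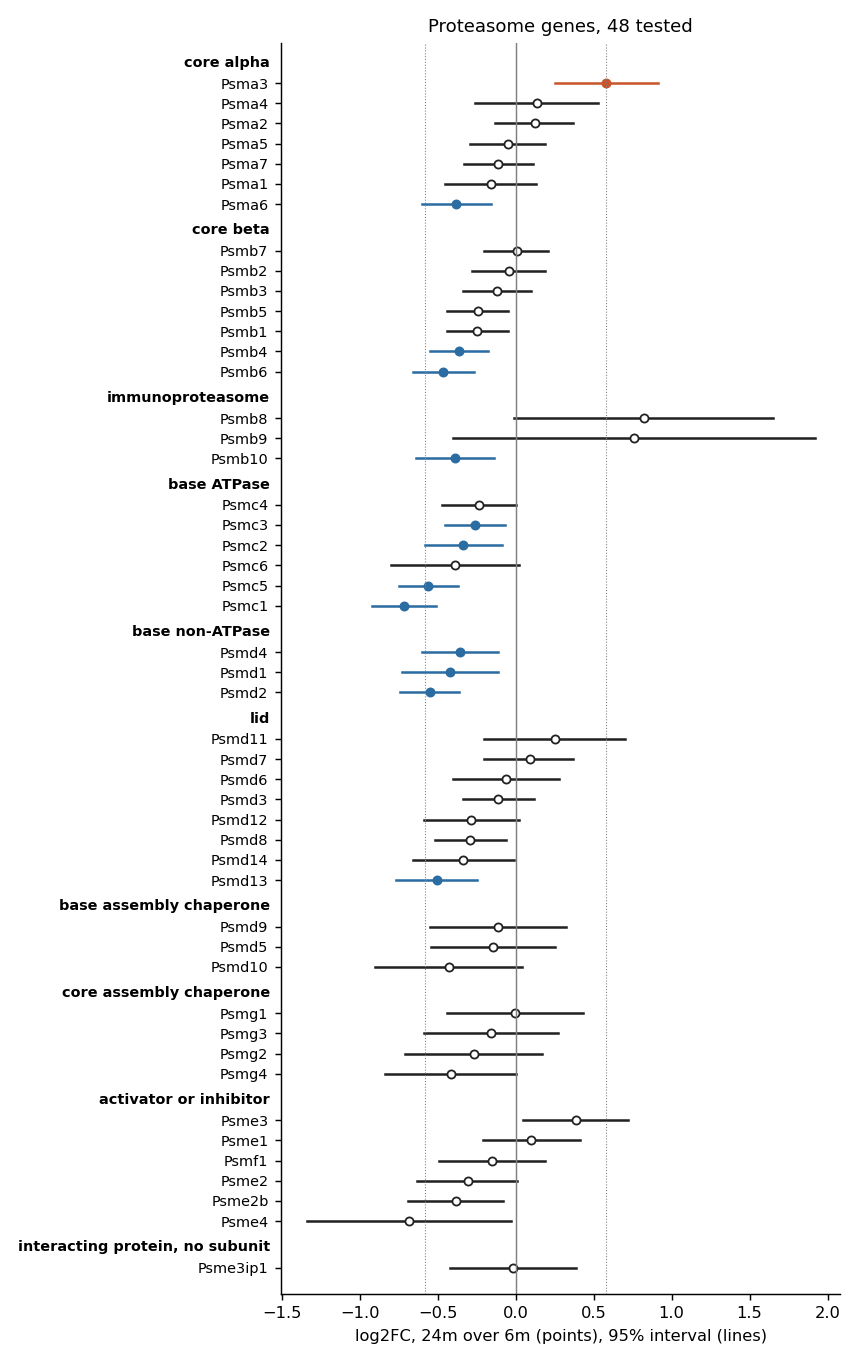
The log2FC of each of the 48 tested genes is plotted by class, with points for estimates and lines for 95% intervals; blue is lower and orange higher at an adjusted p of at most 0.05, open black points did not pass, and dotted lines mark an absolute log2FC of 0.58. All 9 of the rule's genes of the 19S base lie left of 0, and Psmb8 and Psmb9 have the most upward estimates but wide intervals.

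The order of the members' levels depended on the scale. Per kilobase of coding sequence, Psmb1 was highest (721.8 CPM per coding kb at 6m and 608.0 at 24m), then Psmb4 (681.7 and 529.9), both beta subunits, and Psme4, the large PA200 activator, was lowest (3.20 and 2.04), below Psmb9 (6.80 and 11.56) and Psmb8 (10.97 and 20.99). Direct RNA reads are close to 1 per molecule, so scaling by length favours short genes. Without that scaling, mean CPM at 6m was 539.9 for Psmb4, 519.7 for Psmb1 and 516.4 for the base ATPase Psmc5, with overlapping ranges of the libraries, and at 24m it was 419.7, 437.8 and 351.6. Psmb9 then had the lowest level (4.468 CPM at 6m and 7.595 CPM at 24m), with Psme4 at 17.71 and 11.26 CPM. Across the 48 genes the levels per coding kb at 6m and at 24m had a Spearman rho of 0.977, a description over genes measured in the same libraries.

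The 3 remaining rows were not tested. Psma8, the testis form of an alpha subunit, had 2 counts in all libraries together, and Psmb11, the beta subunit of the thymus proteasome, had 1. Psmc3ip, a recombination protein that is no proteasome subunit although its symbol meets the rule, had a mean count of 3.62 and lay just outside the threshold, and Psmb9 lay just inside with 5.12. Psme3ip1, a binding partner of the Psme3 activator and no subunit either, was tested (log2FC of -0.02, adjusted p = 0.965).

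The 19S base is the ring of ATPases with its scaffolds and ubiquitin receptors. Under the symbol rule it had 9 tested genes, of which 7 fell, 2 did not pass and none rose (median log2FC of -0.39). Over all tested genes 9.42% fell. The base's ubiquitin receptor Adrm1 lies outside the rule and is given with the partners. The 6m libraries summed to 2392 ± 68.5 CPM over these 9 genes and the 24m libraries to 1757 ± 85.5 CPM (SD over 4 libraries), 0.734 times as high, with no overlap. The sums of the lid and of the constitutive beta subunits did not overlap between ages either. Psmc1 (ENSMUSG00000021178, chr12:100076404-100090692, GRCm39), an ATPase subunit also called Rpt2, stood at 310.2, 302.0, 329.8 and 327.7 CPM in the 6m libraries and at 198.2, 200.7, 185.6 and 191.0 CPM in the 24m libraries. The libraries of each age lay close together and far from the other age, and Psmc1 fell by 0.71 on the log2 scale (SE 0.0983, adjusted p = 1.16e-05). Psmc5, the ATPase Rpt6, had 551.4, 470.1, 522.7 and 521.1 CPM at 6m and 382.6, 306.7, 362.1 and 355.1 CPM at 24m. Its lowest 6m library was above its highest 24m library, and its log2FC was -0.56 (SE 0.0942, adjusted p = 0.000156). Psmd2, the scaffold Rpn1 that docks ubiquitin receptors and shuttle factors, gave 386.5, 390.6, 409.5 and 374.2 CPM at 6m and 257.6, 255.8, 272.6 and 279.2 CPM at 24m. It fell with a log2FC of -0.55 (SE 0.0926, adjusted p = 0.000162), again with no overlap between ages.

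The other 4 base genes that passed fell by less. Psmc3, the ATPase Rpt5, ranged from 352.9 to 387.7 CPM at 6m (387.7, 358.0, 373.4 and 352.9) and from 299.9 to 323.1 CPM at 24m (323.1, 303.6, 305.8 and 299.9), a log2FC of -0.26 (adjusted p = 0.0427). Psmc2, the ATPase Rpt1, had 184.6, 164.5, 179.2 and 178.3 CPM at 6m and 129.6, 148.7, 122.8 and 155.7 CPM at 24m (log2FC of -0.34, adjusted p = 0.0430). Both ATPases kept their ages apart, with a narrower gap than Psmc1. Psmd4, the ubiquitin receptor Rpn10, had 276.9, 245.9, 252.7 and 292.6 CPM at 6m and 265.2, 176.7, 216.3 and 188.7 CPM at 24m (log2FC of -0.35, adjusted p = 0.0341). The 24m replicate 1 library, at 265.2 CPM, was inside the 6m range. Psmd1, the scaffold Rpn2, had 104.6, 110.3, 94.59 and 90.41 CPM at 6m and 71.64, 67.58, 63.98 and 90.51 CPM at 24m (log2FC of -0.42, adjusted p = 0.0444), and here 24m replicate 4 reached the lowest 6m value. The ATPases Psmc4 (log2FC of -0.23, adjusted p = 0.146) and Psmc6 (-0.39, adjusted p = 0.169) did not pass. These 4 calls were the least secure. With 1 library left out at a time, Psmc2 and Psmd1 kept an adjusted p of at most 0.05 only without 24m replicate 4, Psmc3 only without 24m replicate 1, and Psmd4 only without 6m replicate 2 or 24m replicate 1. Over all 18 alternatives the adjusted p reached 0.176 for Psmc2, 0.213 for Psmc3, 0.137 for Psmd1 and 0.152 for Psmd4, with a negative log2FC throughout.

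**Figure D2:**
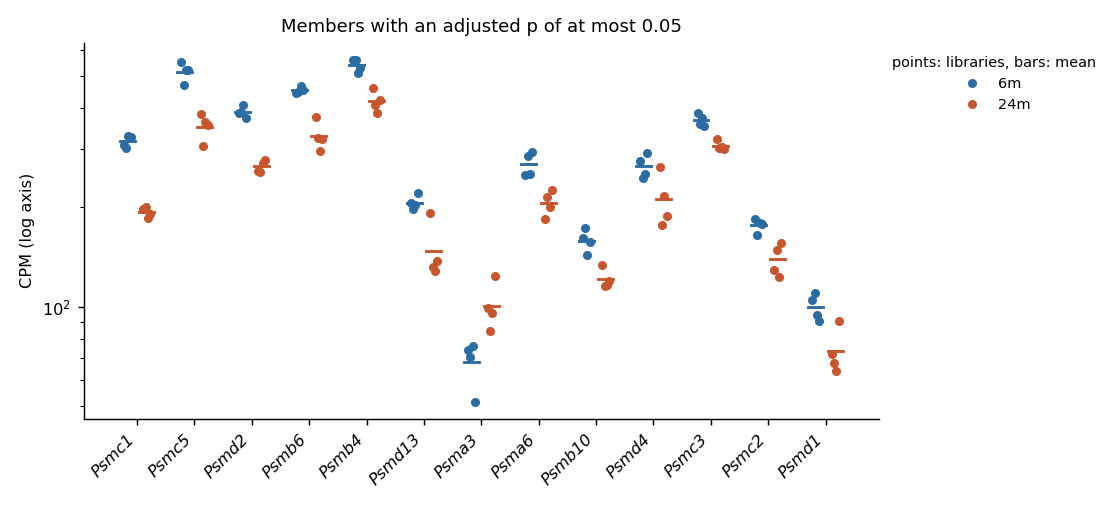
CPM on a log axis of the 13 genes with an adjusted p of at most 0.05, ordered by adjusted p from left to right; points are libraries (blue 6m, orange 24m) and bars the mean of 4. Psmc1, Psmc5 and Psmd2 show the clearest gap, and in Psmd13, Psmd4 and Psmd1 a single 24m library lies near or in the 6m range.

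Under the symbol rule the lid had 8 tested genes, of which 1 fell, 7 did not pass and none rose (median log2FC of -0.20). That is near the 9.42% of all tested genes that fell. The lid subunit Sem1 lies outside the rule and is given with the partners. Psmd13, the lid subunit Rpn9, had 206.8, 197.1, 202.9 and 221.0 CPM at 6m and 192.1, 132.0, 128.0 and 137.3 CPM at 24m. It fell (log2FC of -0.51, SE 0.126, adjusted p = 0.00552), and 24m replicate 1 at 192.1 CPM was well above the other 3. The deubiquitylase Psmd14, which cuts ubiquitin off the substrate, had a log2FC of -0.34 that did not pass (adjusted p = 0.129). The highest estimate was that of Psmd11, a subunit tied to proteasome assembly, at 0.25 (adjusted p = 0.443). Summed over the lid, the 6m libraries had 1107 ± 31.4 CPM and the 24m libraries 953.2 ± 54.3 CPM (SD over 4 libraries), 0.861 times as high. These sums did not overlap, with 1087 CPM as the lowest at 6m and 1006 CPM as the highest at 24m.

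Of the 7 alpha subunits of the 20S core tested, 1 rose, 1 fell and 5 did not pass (median log2FC of -0.05), which is near the 12.3% and 9.42% of all tested genes that rose and fell. Psma3, which encodes the alpha7 subunit, rose from 73.85, 70.52, 75.92 and 51.48 CPM at 6m to 99.08, 84.21, 95.98 and 123.5 CPM at 24m. Every 24m library was above every 6m library, and its log2FC of 0.58 (SE 0.161, adjusted p = 0.0116) was just past the fold minimum. Without 6m replicate 4, the lowest library, the log2FC was 0.47 with an adjusted p of 0.0552. Psma6, which encodes the alpha1 subunit, fell from 251.1, 285.7, 252.7 and 293.8 CPM to 184.4, 215.2, 200.9 and 225.5 CPM (log2FC of -0.38, SE 0.106, adjusted p = 0.0121). Its ages did not overlap, and its adjusted p also rose above 0.05 without 6m replicate 4 (0.0632). The other 5 alpha subunits lay between a log2FC of -0.16 for Psma1 and 0.14 for Psma4.

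Of the 7 constitutive beta subunits, 2 fell, 5 did not pass and none rose (median log2FC of -0.24), beside 9.42% of all tested genes that fell. The 7 summed to 2696 to 2852 CPM at 6m and 2145 to 2599 CPM at 24m, also with no overlap. Psmb6, the beta1 subunit that cuts after acidic residues, had 445.6, 448.4, 468.0 and 454.6 CPM at 6m and 375.0, 325.4, 296.9 and 321.4 CPM at 24m. It fell with a log2FC of -0.47 (SE 0.0935, adjusted p = 0.000951) and no overlap between ages. Psmb4, the beta7 subunit, which does not cut, had 558.8, 560.5, 510.3 and 529.9 CPM at 6m and 458.8, 409.6, 387.7 and 422.6 CPM at 24m (log2FC of -0.36, SE 0.0889, adjusted p = 0.00477). The other cutting subunits did not pass. Psmb5, the beta5 subunit that the proteasome inhibitor bortezomib blocks, had 509.6, 475.6, 490.4 and 484.7 CPM at 6m and 471.0, 406.5, 348.1 and 434.1 CPM at 24m. Its ages did not overlap but its adjusted p was 0.0710 (log2FC of -0.24), and without 24m replicate 1 it was 0.00868 (log2FC of -0.29). Psmb7, the beta2 subunit that cuts after basic residues, had 306.5, 285.7, 275.1 and 290.1 CPM at 6m and 286.6, 256.8, 302.0 and 316.8 CPM at 24m. The 24m range enclosed the 6m range, with a log2FC of 0.01 (95% interval -0.20 to 0.21).

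**Figure D3:**
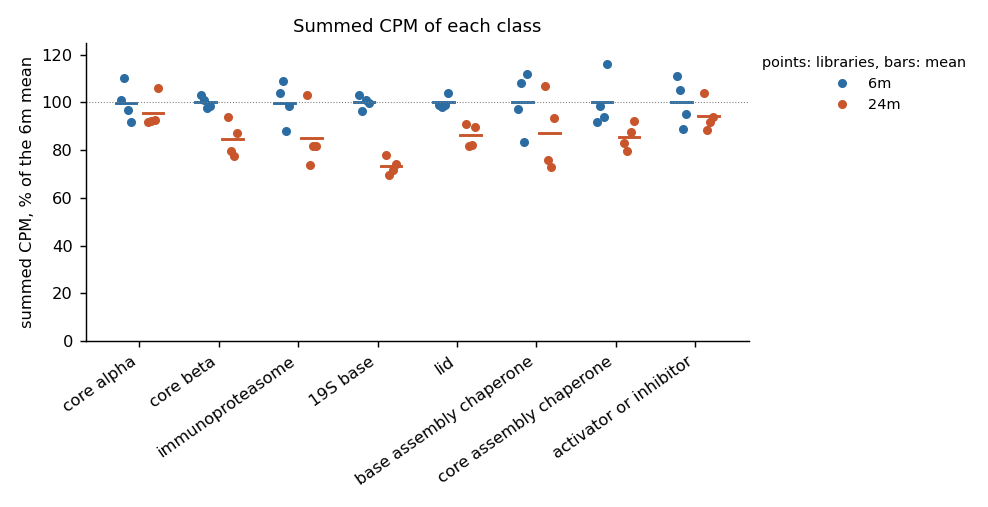
Summed CPM of each class of members as a percentage of the class's 6m mean; points are libraries (blue 6m, orange 24m) and bars the mean of 4. The 19S base has its 24m libraries at 69.7 to 78.0%, beside 77.6 to 94.0% for the constitutive beta subunits, and in the alpha subunits the ages overlap.

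Promoters are shown for 4 genes: for Psmc1 and Psmb6, which fell, for Psma3, which rose, and for Psmb8, the immunoproteasome gene with the highest estimate. The sequences are RefSeq's (table build GRCm38.p6), 250 bases before to 50 bases after the start, 5′ to 3′ on the gene's strand, and each was placed in GRCm39 by an exact and unique match. They lie at chr12:100076211-100076510 (Psmc1), chr11:70415933-70416232 (Psmb6), chr12:71021147-71021446 (Psma3) and chr17:34416919-34417218 (Psmb8), all on the plus strand. The windows of Psma3, Psmc1 and Psmb8 reach into or lie within the annotated gene, which starts upstream of the RefSeq start there. Capitals mark matches on either strand to the antioxidant response element (TGACNNNGC), the CCAAT box (its own letters), the interferon-stimulated response element (by name), the gamma-activated site (TTCNNNGAA) and the ETS factor motif (CCGGAAG), and no match overlaps another motif.
Psmc1: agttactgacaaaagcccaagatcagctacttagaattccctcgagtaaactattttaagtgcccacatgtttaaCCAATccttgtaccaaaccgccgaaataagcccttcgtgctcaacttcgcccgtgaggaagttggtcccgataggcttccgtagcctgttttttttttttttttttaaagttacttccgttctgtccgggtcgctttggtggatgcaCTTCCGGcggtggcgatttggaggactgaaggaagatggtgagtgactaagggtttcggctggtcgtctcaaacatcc
Psmb6: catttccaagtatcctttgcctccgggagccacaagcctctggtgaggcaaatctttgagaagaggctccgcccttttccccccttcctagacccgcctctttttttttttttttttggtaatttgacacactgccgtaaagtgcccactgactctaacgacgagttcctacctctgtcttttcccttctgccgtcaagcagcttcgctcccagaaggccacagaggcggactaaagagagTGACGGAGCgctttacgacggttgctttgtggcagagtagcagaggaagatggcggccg
Psma3: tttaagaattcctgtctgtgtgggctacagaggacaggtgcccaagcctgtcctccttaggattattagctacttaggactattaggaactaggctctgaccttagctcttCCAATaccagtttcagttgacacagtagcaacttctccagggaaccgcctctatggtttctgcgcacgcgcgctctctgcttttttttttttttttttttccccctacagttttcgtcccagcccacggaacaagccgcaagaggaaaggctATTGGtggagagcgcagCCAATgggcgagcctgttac
Psmb8: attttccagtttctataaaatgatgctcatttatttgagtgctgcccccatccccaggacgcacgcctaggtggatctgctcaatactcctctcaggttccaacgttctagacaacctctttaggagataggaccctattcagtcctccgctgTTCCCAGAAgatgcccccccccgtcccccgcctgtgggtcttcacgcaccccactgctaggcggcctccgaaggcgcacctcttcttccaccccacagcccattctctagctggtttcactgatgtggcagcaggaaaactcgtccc
The Psmc1 promoter held a CCAAT box and an ETS motif, that of Psmb6 an antioxidant response element at its start, that of Psma3 3 CCAAT boxes and that of Psmb8 a gamma-activated site. Of the 48 tested members, 41 had a promoter in the table, with 45 promoters in all. The ETS motif was in 16 of these (35.6%), against 17.6% of the promoters of all tested genes and 8.86% of all 32851 promoters, and it stood in 15 genes. Of these, Psmc1, Psmc2, Psmd2, Psmd4, Psmd13 and Psma6 fell. The others, Psmc6, Psmd6, Psmd11, Psmd12, Psme3, Psme3ip1, Psme4, Psmg1 and Psmg3, did not pass, with Psmd11 and Psme3 at a positive log2FC of 0.25 and 0.39. Of all 48 tested members 25.0% fell, and of all tested genes 9.42%. A link between the motif and the change with age was not tested. The antioxidant response element was in 13.3% of the members' promoters, 13.6% of those of all tested genes and 12.4% of all promoters, and the CCAAT box in 31.1%, 37.5% and 37.4%. In the same order, the interferon-stimulated response element was in 11.1%, 2.63% and 3.44%, and the gamma-activated site in 6.67%, 6.20% and 8.30%. The interferon-stimulated element stood in 5 members' promoters, those of Psmb3, Psmd4, Psmd9, Psme1 and Psmg4, with no immunoproteasome gene among them. These are matches of letters and no evidence of binding.

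Of the 3 immunoproteasome subunits 1 passed the test, beside 12.3% and 9.42% of all tested genes that rose and fell. Differences between the 3 were not tested. Psmb10, which takes the place of Psmb7, fell, while Psmb8 and Psmb9 had positive estimates that did not pass. Psmb8 (chr17:34416690-34420428) and Psmb9 (chr17:34400960-34406738) lie on either side of the gene Tap1 in the class II region of the histocompatibility locus. Psmb10 (chr8:106662362-106665077) stands alone. Psmb10 had 161.2, 173.6, 143.1 and 157.0 CPM at 6m and 134.1, 115.4, 116.5 and 119.7 CPM at 24m, with no overlap. Its log2FC was -0.39 (SE 0.122, adjusted p = 0.0240), and its adjusted p was above 0.05 in 9 of 18 alternatives, up to 0.0903, among them those without 6m replicate 1, 2 or 4 and without 24m replicate 2, 3 or 4. Psmb8, which takes the place of Psmb5, had 13.54, 9.04, 7.47 and 6.28 CPM at 6m and 27.44, 8.32, 23.03 and 10.74 CPM at 24m. The 24m replicates 1 and 3 were above every 6m library and the other two were within the 6m range, so the log2FC of 0.82 had a 95% interval of -0.01 to 1.65 (adjusted p = 0.148), and without 24m replicate 1 it was 0.55 (adjusted p = 0.335). Psmb9, which takes the place of Psmb6, had 4.92, 5.43, 1.25 and 6.28 CPM at 6m and 15.24, 3.12, 1.28 and 10.74 CPM at 24m. It had a mean count of 5.12 per library, so that single reads decided its values, and its log2FC was 0.76 (95% interval -0.40 to 1.92, adjusted p = 0.367). The intervals of Psmb8 and Psmb9 thus leave both a value near 0 and a clear rise possible, and that of Psmb9 a fall as well.

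**Figure D4:**
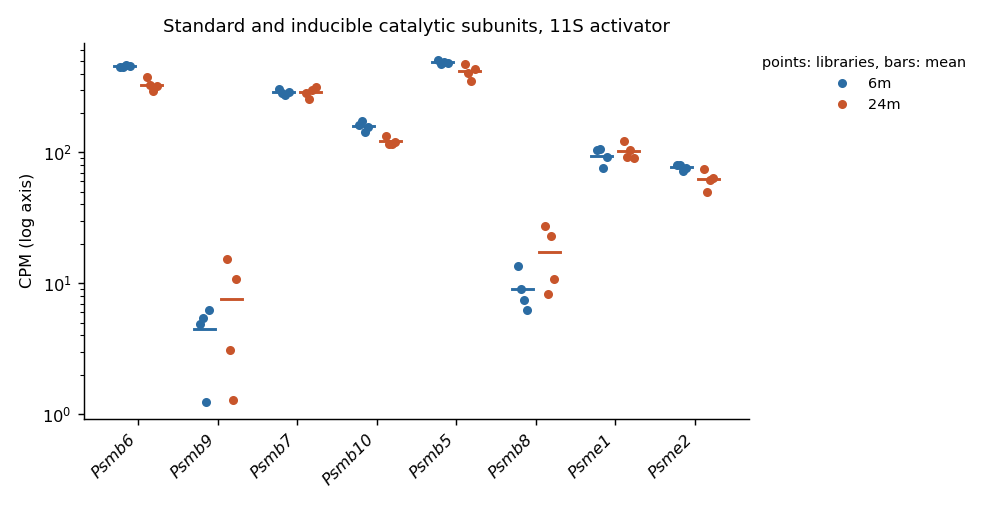
CPM on a log axis of each standard catalytic subunit beside the inducible one that replaces it (Psmb6 and Psmb9, Psmb7 and Psmb10, Psmb5 and Psmb8) and of the PA28 activator genes; points are libraries (blue 6m, orange 24m) and bars the mean of 4. Psmb10 lies between 115.4 and 173.6 CPM, whereas Psmb8 reaches at most 27.44 CPM and Psmb9 at most 15.24 CPM.

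Class I presentation and interferon genes were listed beside the immunoproteasome, since the same signals are known to induce both. Of 18 listed genes, 14 were tested, and of these 3 rose, 11 did not pass and none fell, beside 12.3% and 9.42% of all tested genes that rose and fell. All 14 estimates were positive (median log2FC of 0.65), whereas 50.3% of all tested genes were negative. B2m, the light chain of class I molecules, rose from 131.7, 119.3, 131.9 and 113.0 CPM to 248.5, 201.7, 221.4 and 250.8 CPM (log2FC of 0.89, SE 0.118, adjusted p = 6.77e-06). The class I heavy chains H2-K1 (log2FC of 0.66, adjusted p = 0.0207) and H2-D1 (0.64, adjusted p = 0.00233) rose as well. Without overlap between ages, 6 of the 14 were higher, these 3 among them, and none lower, beside 11.1% and 9.96% of all tested genes. H2-K1 missed the threshold without 6m replicate 1 or 24m replicate 1 (adjusted p up to 0.0626). Tap1, a peptide transporter gene whose exons share 743 bases with Psmb9 on the other strand, had a log2FC of 0.55 (adjusted p = 0.356). Microglia express these genes, and of 10 tested microglial markers out of 12 listed, 5 rose and none fell (median log2FC of 0.45). The shares of all tested genes were again 12.3% and 9.42%. Their summed level was 876.4 to 931.0 CPM at 6m and 1087 to 1370 CPM at 24m, while the defining microglial gene Cx3cr1 was at 0 in 5 of 8 libraries. The T cell genes Cd3e and Cd8a were at 0 in all 8 libraries, and the 6 lymphocyte genes summed to 23.9 to 29.5 CPM at 6m and 20.5 to 33.5 CPM at 24m. The part of the microglial level in the values of Psmb8, Psmb9 and Psmb10 was not tested.

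Among the 6 activator and inhibitor genes none passed the test (median log2FC of -0.23), beside 12.3% and 9.42% of all tested genes that rose and fell. The PA28 activator of the immunoproteasome is made of Psme1 and Psme2. Psme1 had 103.4, 106.7, 75.92 and 91.67 CPM at 6m and 121.9, 91.49, 103.7 and 90.51 CPM at 24m (log2FC of 0.10, adjusted p = 0.677). Psme2 had 80.01, 79.56, 72.19 and 75.34 CPM at 6m and 74.69, 49.90, 61.42 and 63.66 CPM at 24m (log2FC of -0.31, adjusted p = 0.157). Both genes overlapped between ages. Psme2 matches its copy Psme2b at 99.4% identity over 795 bases, and Psme2b had a log2FC of -0.38 (adjusted p = 0.0654), so the split of reads between them is uncertain. Of the 6 genes only Psme2b kept its ages apart, beside 9.96% of all tested genes that were lower without overlap. Psme3, the nuclear PA28 gamma, had the highest estimate of the class at 0.39 (adjusted p = 0.0909, and 0.0300 without 6m replicate 1), and Psme4 the lowest at -0.68 (adjusted p = 0.129, and 0.0443 without 24m replicate 1). The inhibitor Psmf1 (PI31) had -0.15 (adjusted p = 0.562).

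The chaperones that build the particles did not pass either, beside 12.3% and 9.42% of all tested genes that rose and fell. The 3 tested for the base (Psmd5, Psmd9 and Psmd10) had log2FC values from -0.43 for Psmd10 to -0.12 for Psmd9, and the 4 for the core (Psmg1 to Psmg4) from -0.42 for Psmg4 to -0.001 for Psmg1. Only Psmd10 kept its ages apart, with 24.62 to 30.74 CPM at 6m and 19.18 to 22.87 CPM at 24m (adjusted p = 0.189). Of all tested genes 9.96% were lower without overlap. The chaperone genes had mean counts of 19.8 to 41.0 per library, and the SE of their log2FC was 0.192 to 0.228, against 0.0983 for Psmc1.

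Genes that feed, build or regulate the particle were listed as its partners, together with the subunits Adrm1 and Sem1, whose symbols lie outside the rule. Of 28 listed partners 27 were in the table and 26 tested, of which 8 rose, 3 fell and 15 did not pass (median log2FC of -0.01), beside 12.3% and 9.42% of all tested genes that rose and fell. All 8 that rose passed the fold minimum, and most of them deliver or prepare substrates. The ubiquilins, which carry ubiquitin-tagged proteins to the 19S base, rose by 0.74 for Ubqln1, 0.88 for Ubqln2 and 0.79 for Ubqln4 on the log2 scale (adjusted p = 0.00726, 0.00431 and 0.0139). Rad23b, another shuttle factor, had 51.70, 48.82, 53.52 and 30.14 CPM at 6m and 74.69, 90.45, 84.46 and 102.0 CPM at 24m (log2FC of 0.95, adjusted p = 0.000386). The ages of Rad23b and Ubqln1 did not overlap, whereas 24m replicate 1 of Ubqln2, at 54.87 CPM, lay inside the 6m range of 46.77 to 81.37 CPM. Ufd1 (log2FC of 0.71, adjusted p = 0.0116) and Nploc4 (1.04, adjusted p = 0.0151), the cofactors with which the unfoldase Vcp pulls proteins out of complexes, rose, whereas Vcp itself did not pass (-0.14, adjusted p = 0.366). Midn, which brings nuclear proteins to the proteasome without ubiquitin, had 1.57 (adjusted p = 0.00761), from 1.81 to 6.28 CPM at 6m to 10.67 to 20.47 CPM at 24m. Zfand2a, a stress-induced protein that binds the 19S particle, had 1.12 (adjusted p = 0.0345). With 1 library left out, the adjusted p passed 0.05 for Ubqln4 without 24m replicate 3 (0.0677), for Nploc4 without 6m replicate 3 (0.0509) or 24m replicate 2 (0.0541), and for Zfand2a without 6m replicate 1 (0.118), 6m replicate 2 (0.0778) or 24m replicate 2 (0.179). DESeq2 on quantile-normalized counts called 3 of the 8.

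The 3 of 26 partners that fell, beside 9.42% of all tested genes, were Ecpas, Fbxo7 and Pomp. Ecpas, the scaffold Ecm29 that ties core and cap, had 46.77, 34.36, 41.07 and 23.86 CPM at 6m and 18.29, 15.59, 20.47 and 19.94 CPM at 24m (log2FC of -0.97, adjusted p = 0.00531). Fbxo7, a ligase subunit that binds PI31, fell (-0.55, adjusted p = 0.0184), as did Pomp, the chaperone that is the first substrate of the finished core (-0.32, adjusted p = 0.0349). Of the 26 tested partners, 4 were lower without overlap between ages, these 3 and Adrm1, beside 9.96% of all tested genes. Another 6 partners were higher without overlap, beside 11.1% of all tested genes. Pomp missed the threshold in 12 of 18 alternatives and Fbxo7 in 6. The 6 of Fbxo7 included those without 6m replicate 2, 6m replicate 3 and 24m replicate 2 (adjusted p = 0.0649, 0.0613 and 0.0669). Adrm1, the ubiquitin receptor Rpn13 of the base, also kept its ages apart but did not pass (-0.31, adjusted p = 0.0553). The lid subunit Sem1 did not pass either (-0.055, adjusted p = 0.808). Nfe2l1, the transcription factor that induces proteasome genes when proteasomes are blocked, had -0.26 (adjusted p = 0.122), and Nfe2l2 0.08 (adjusted p = 0.891).

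**Figure D5:**
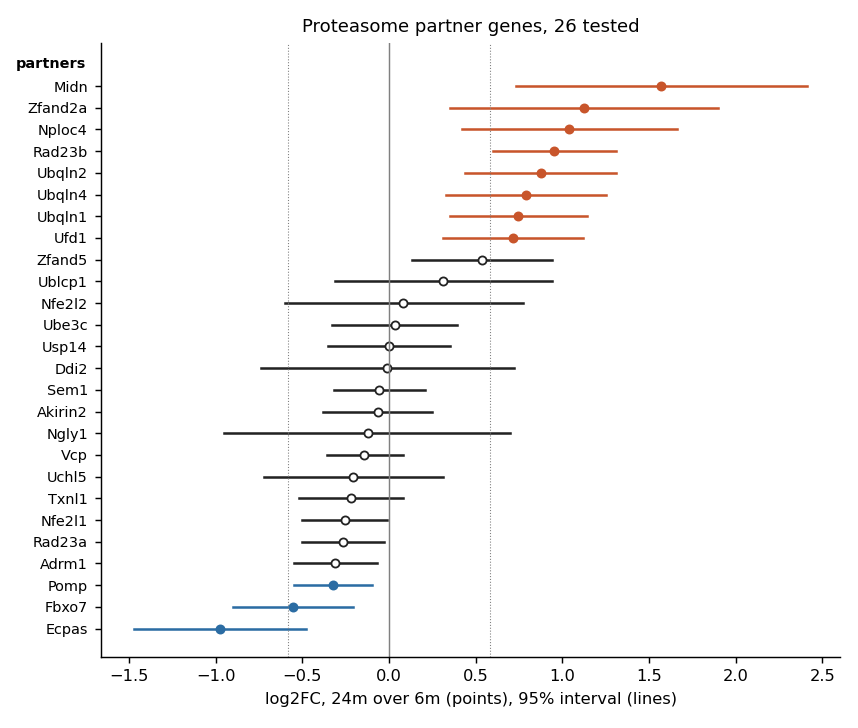
The log2FC of the 26 tested partner genes, with points for estimates and lines for 95% intervals; orange is higher and blue lower at an adjusted p of at most 0.05, open black points did not pass, and dotted lines mark an absolute log2FC of 0.58. The 8 genes that rose have estimates between 0.71 and 1.57, and Ecpas has the lowest estimate at -0.97.

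Some members share sequence with other genes, and whether the counting used strand was not given in the sources used here. Exon bases were shared with a gene of the opposite strand by 23 of the 48 tested members, among them Psmc5 with Smarcd2 (1269 bases), Psmd13 with Cox8b (1231 bases) and Psmb7 with Nek6 (2817 bases). With a gene of the same strand they were shared by 4, among them Psmd1, which fell, with Gm21972 (301 bases). A near-identical annotated copy elsewhere was found for 10, including pseudogene copies of Psma3, Psmc1 and Psmd2, and reads of such pairs may have been split. Psmb6, which fell, was in none of these groups by these limits.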

How the data were processed

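Gene counts of 8 ONT libraries were used as deposited: the authors mapped reads to GRCm39 (Ensembl 103) using minimap2 2.24, featureCounts gave the gene level, and the values are raw counts. Settings on strand and multimapping reads are not given in the sources used here. Symbols came from GENCODE vM39 (22281 of 22430 identifiers matched, 149 not). The 9375 genes above a mean count of 5 were tested in R 4.3.3 with edgeR 4.0.16 (glmQLFit and glmQLFTest, TMM, Benjamini-Hochberg), with age as the only term. Replicates are separate mice. "Fell" and "rose" mean an adjusted p of at most 0.05, and "changed" also an absolute log2FC of at least 0.58, the limits of the study's methods. The code was tested on simulated data. Alternatives were other scalings, filters and tools (DESeq2 1.42.0, limma 3.58.1), each library left out, and a replicate block. Near-identical copies were transcripts with at least 95% identity to the gene's canonical transcript (blastn 2.17.0). The aligned length had to be at least 50% of the coding length, but could lie outside the coding sequence. Members, lists and the text's rule for named genes were chosen with earlier results of these data known: values in every library are given for the members that passed, the catalytic subunits, Psme1 and Psme2, other members are given by class, and of the other lists mainly genes that passed are named. Motifs and promoters were chosen after values were seen. The CPM worth of 3 counts is a conversion of units and no measure of error, and 4 mice per age limit each test.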

Additional observations from a re-analysis of the deposited data

Results flagged for a closer look

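Within a group of 4 libraries, 6 of 96 groups examined had 1 library far from the other 3 (by Dixon's test at the 95% level), where chance gives about 5. Psmd13 in 24m replicate 1 was at 192.1 CPM, against 128.0 to 137.3 CPM in the other 24m libraries. The summed alpha subunits in 24m replicate 4 reached 1143 CPM, against 992.3 to 999.4 CPM. The summed lid in 6m replicate 4 was at 1154 CPM, against 1087 to 1095 CPM. H2-D1 was low in 6m replicate 4 (71.58 CPM, against 88.60 to 91.08 CPM) and high in 24m replicate 1 (163.1 CPM, against 119.7 to 126.8 CPM). The total count of 6m replicate 2 was 573152, against 818963 to 843706 in the other 6m libraries.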

How the results depend on the processing

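The negative median of the proteasome genes relative to all tested genes held in each of the 18 alternatives, with a difference of -0.258 to -0.151 in log2FC against -0.235 as reported. Psmc1, Psmc5, Psmd2, Psmd13, Psmb6 and Psmb4 fell at an adjusted p of at most 0.05 in all 18. The count of 19S base genes that fell was 3 to 7, against 7 as reported. Library sizes without scaling factors moved the median of all genes by about 0.10, and 6 members then fell and 2 rose (Psma3 and Psme3), with 223 genes changed lower in all. DESeq2 on raw counts gave 7 members that fell, and 629 genes changed higher and 205 lower. DESeq2 on quantile-normalized counts gave 0 members changed higher (Psma3 at a log2FC of 0.57), 553 genes changed higher and 3 partners changed higher. With over 5 counts required in every library, 2 members rose and 222 genes changed lower. Without the fold minimum, 12 members and 883 genes were lower. With 1 library left out at a time, 6 to 16 members fell (6 without 6m replicate 4, 16 without 24m replicate 1), 0 to 2 rose, 1 to 4 were changed lower, 0 to 1 changed higher, and 1 to 2 partners were changed lower. Psmb7 turned from 0.007 to -0.012 without 6m replicate 3, -0.005 without 24m replicate 3 and -0.024 without 24m replicate 4, within a range of -0.024 to 0.068 over the libraries left out and never past the threshold. With the replicate number as a block, 11 members fell and 1 rose. Same-numbered libraries did not deviate together (correlations of 0.0647, -0.0101, 0.00510 and -0.160), so the numbers pair no mice. The cause of these shifts was not tested. Psmb8 and Psmb9 had mean counts of 10.62 and 5.12 per library, where single reads weigh most.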
